A study of Bos taurus with 21 samples.

Results

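miR-574 was followed through the small RNA of extracellular vesicles (EVs), small membrane sacs shed by cells, taken from the blood serum of 21 cows. It is 1 of the 847 miRNA rows of the deposited table and 1 of its 298 rows with a known bovine name, bta-miR-574. It was selected on its lower deposited signal in subclinical mastitis, so the values of the subclinical cows against the others chose it. They are given below as a description without a test.

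The cows fell into 3 groups of 7: cows with clinical mastitis, an udder inflammation with visible signs, cows with the subclinical form, which shows none, and healthy cows that served as controls. The labels give no breed, age, pathogen or treatment, and each column is tied to 1 animal. Small RNA was sequenced from total RNA of the vesicles, and the sources used here do not say how the vesicles were isolated. The total that the known miRNAs of a library were scaled to ran from 1337 to 33776 reads in clinical cows (median 3259), from 3115 to 27453 in subclinical cows (median 15524) and from 1332 to 5550 in healthy cows (median 2078).

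miRNAs are short RNAs that guide repression of messenger RNAs, and vesicles carry them between cells and in blood. In humans and mice the hairpin of miR-574 yields both arms. The 5p arm is rich in alternating G and U, and human studies describe it as a decoy for the RNA-binding protein CUGBP1 and, in tumour vesicles, as a ligand of the endosomal sensors TLR7 and TLR8, while the human 3p arm is described as a decoy for hnRNP L. The name in the table does not say which bovine arm was counted, and the sequence is not printed because no file used here holds it. In the RefSeq annotation of the ARS-UCD2.0 assembly, which is not the ARS-UCD1.2 build of the study, the only entry named MIR574 overlapped no other gene. It lay between the long noncoding RNA LOC104974955 and TTYH1, a gene of the tweety family of membrane proteins, with LAIR1, which encodes an inhibitory receptor of leukocytes, as the nearest protein-coding gene on the other side. In humans the gene lies in an intron of FAM114A1, which in this bovine annotation is on another chromosome.

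The libraries held known miRNAs of blood cells and vessels. Summed signal of the endothelium and platelet list (2 of 2 members read, miR-126-3p and miR-126-5p) ran from 169558 to 396659 in clinical, from 31782 to 352530 in subclinical and from 129369 to 297101 in healthy cows. The red cell list (3 of 3 in the table) ran from 6721 to 11967 in clinical, from 5136 to 26603 in subclinical and from 3850 to 15221 in healthy cows. Its sum was mostly miR-486 (mean signal 9685 over all cows), while miR-451 (472) was read in 11 libraries and miR-144 (70) in 2. The myeloid list (3 of 3), led by miR-223, ran from 13429 to 45616 in clinical, from 12511 to 65490 in subclinical and from 15015 to 44140 in healthy cows. The ranges of these lists overlapped between the groups, and so did the lymphocyte list (2 of 2), at 7479 to 26911 in clinical, 12385 to 36659 in subclinical and 5476 to 31094 in healthy cows. The mammary epithelium list (5 of 5 in the table) was scarce, with 17 reads in all clinical, 51 in all subclinical and 24 in all healthy cows. The hepatocyte list, miR-122 and miR-885, ran from 0 to 2457 in clinical, from 642 to 28593 in subclinical and from 0 to 4505 in healthy cows. Its highest values lay in the group with the lowest mean miR-574 signal, and its part in the miR-574 values was not tested.

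miR-574 was read in all 21 cows. Signal is given in reads per 1000000 of the known scaling total of the library. In clinical cows the lowest signal was 1747 (clinical 7), the median 13514 and the highest 28501 (clinical 2), with a mean of 13348 ± 9319 (SD, n = 7). In subclinical cows it ran from 1879 (subclinical 7) through a median of 3607 to 11236 (subclinical 2), with a mean of 4565 ± 3256 (SD, n = 7). In healthy cows it ran from 4685 (healthy 7) through a median of 20270 to 49624 (healthy 1), with a mean of 24121 ± 14836 (SD, n = 7). Within each group the highest cow exceeded the lowest by a wide margin, 16.3-fold in clinical, 5.98-fold in subclinical and 10.6-fold in healthy cows.

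The subclinical and healthy cows overlapped through healthy 7 alone, since 6 of 7 healthy cows lay above every subclinical cow. Healthy 7 had 26 reads of miR-574 among 5550, and its exact 95% binomial interval of 3062 to 6857 covered the signal of subclinical 1 (6040). Subclinical 2, the highest of its group, had an interval of 7838 to 15592, from 35 reads among 3115. These intervals cover counting error only. The clinical cows covered the whole subclinical range: 4 of 7 lay above every subclinical cow, and clinical 7 lay below all of them. Of the 7 healthy values 5 fell inside the clinical range, and 2, healthy 1 and healthy 2, lay above it.

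**Figure D1:**
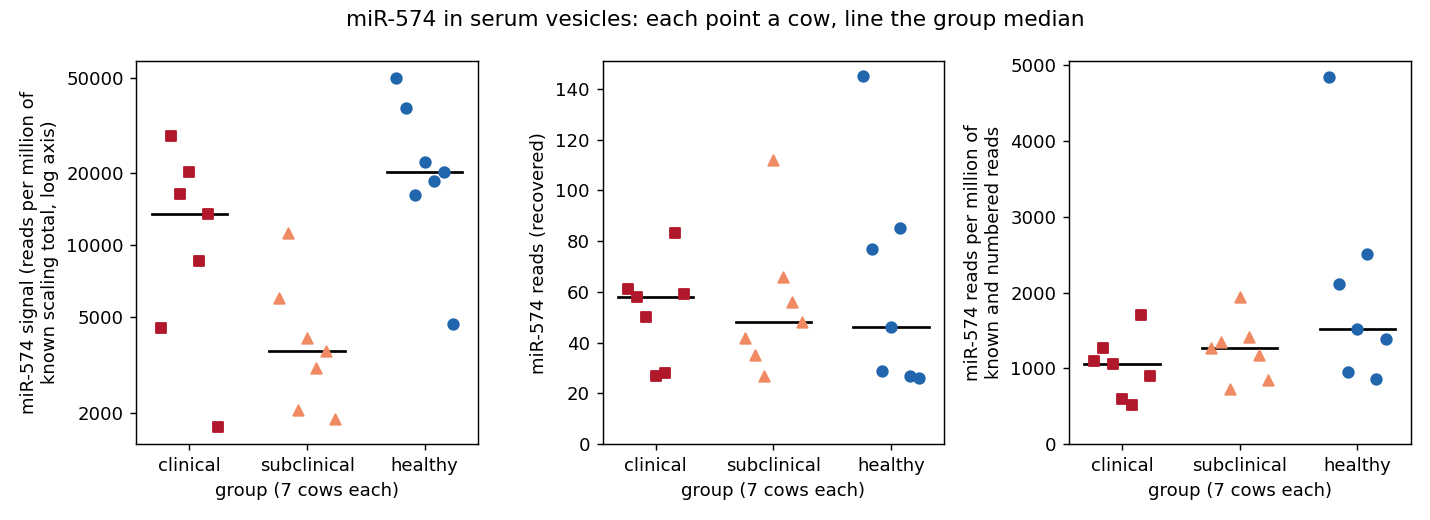
miR-574 in each cow (points) with the group median (line), for clinical, subclinical and healthy cows, 7 each: signal in reads per 1000000 of the known scaling total (log axis), recovered reads, and reads per 1000000 of known and numbered reads together. The median signal was 3607 in subclinical cows against 20270 in healthy cows, while the median reads were 48 in subclinical and 46 in healthy cows.

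By mean signal miR-574 was at rank 14 of 216 known miRNAs with any signal in clinical cows, 29 of 268 in subclinical cows and 7 of 170 in healthy cows. These lists differ in length, so the ranks show no change between groups. In single cows its rank ran from 7 to 32 in clinical, from 15 to 40 in subclinical and from 6 to 27 in healthy cows. These places were not sharply held. In clinical cows let-7c, a member of the let-7 family, stood directly above it at 13432 ± 3625 and miR-21-5p, which rises in many inflamed tissues, directly below at 13044 ± 7595. There miR-574 exceeded let-7c in 4 of 7 cows and miR-21-5p in 3 of 7. In healthy cows it stood between miR-1246 (49802 ± 24589) and let-7c (20591 ± 8629; miR-574 higher in 4 of 7). In subclinical cows it stood between miR-1468 (4977 ± 3973) and miR-142-5p, a miRNA of blood cells (4098 ± 3877), and it exceeded them in 2 and 4 of 7 cows. The most abundant known miRNA was miR-126-5p of endothelium and platelets in clinical and healthy cows and miR-1246 in subclinical cows.

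The mean number of miR-574 reads differed between the 3 groups by less than the spread between cows, while the known totals were several times apart. Summed over 7 cows it was 366 reads in clinical, 386 in subclinical and 435 in healthy cows. It made up 0.580% of the clinical known total of 63128 reads (exact 95% interval 0.522 to 0.642%), 0.341% of the subclinical total of 113290 (0.308 to 0.376%) and 2.14% of the healthy total of 20329 (1.95 to 2.35%). These intervals cover the counting error of the summed reads only, and do not measure the spread between cows. In single cows the share ran from 0.175 to 2.85% in clinical, from 0.188 to 1.12% in subclinical and from 0.468 to 4.96% in healthy cows. Clinical 7 alone held 33776 reads of the clinical total. The mean count per cow (SD, n = 7) was 52.3 ± 19.7 reads in clinical, 55.1 ± 28.2 in subclinical and 62.1 ± 43.8 in healthy cows. Healthy 1 held 145 of the healthy reads, and without it the healthy mean was 48.3. The lowest count was 27 reads in clinical, 27 in subclinical and 26 in healthy cows.

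The known totals differed between subclinical and healthy cows far more than the miR-574 reads did. The mean signal was 5.28-fold higher in healthy than in subclinical cows, and the mean number of reads 1.13-fold higher. Among the 44 known miRNAs read in at least 18 of the 21 libraries, the median ratio of summed subclinical reads to healthy reads was 5.15, and miR-574 stood at 0.887. It was 1 of 3 with fewer reads in subclinical than in healthy cows, beside miR-2478 (0.506) and miR-11980 (0.425). That direction rests on healthy 1: without it the ratio of mean miR-574 reads was 1.14 for subclinical over healthy and 1.08 for clinical over healthy cows. For clinical over healthy reads the median was 2.66 and miR-574 stood at 0.841, 1 of 6 below 1. Numbered miRNAs, the 549 rows without a name, summed to 0.989 times as many reads in subclinical as in healthy cows and 1.56 times as many in clinical as in healthy cows. A share of the known total cannot tell less miR-574 from more of the other known miRNAs. Were miR-574 itself lower, fewer vesicles that carry it and fewer copies per vesicle could not be told apart in such samples.

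Few libraries of the groups were of similar depth. Known scaling totals between 2922 and 3259 reads were held by clinical 3 (signal 16377), clinical 5 (8592), subclinical 2 (11236) and healthy 1 (49624). Totals between 5550 and 6954 reads were held by clinical 6 (13514), subclinical 1 (6040) and healthy 7 (4685). The subclinical cow was below the healthy one at the lower depth and above it at the higher. Those healthy cows had the highest and the lowest signal of their group. Healthy 5, between these depths at 4599 reads, had a signal of 18482, and single cows make no comparison of groups. Only these 2 subclinical libraries had a known scaling total under 13150 reads, and no healthy library had one over 5550, so depth and group cannot be told apart for most libraries.

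**Figure D2:**
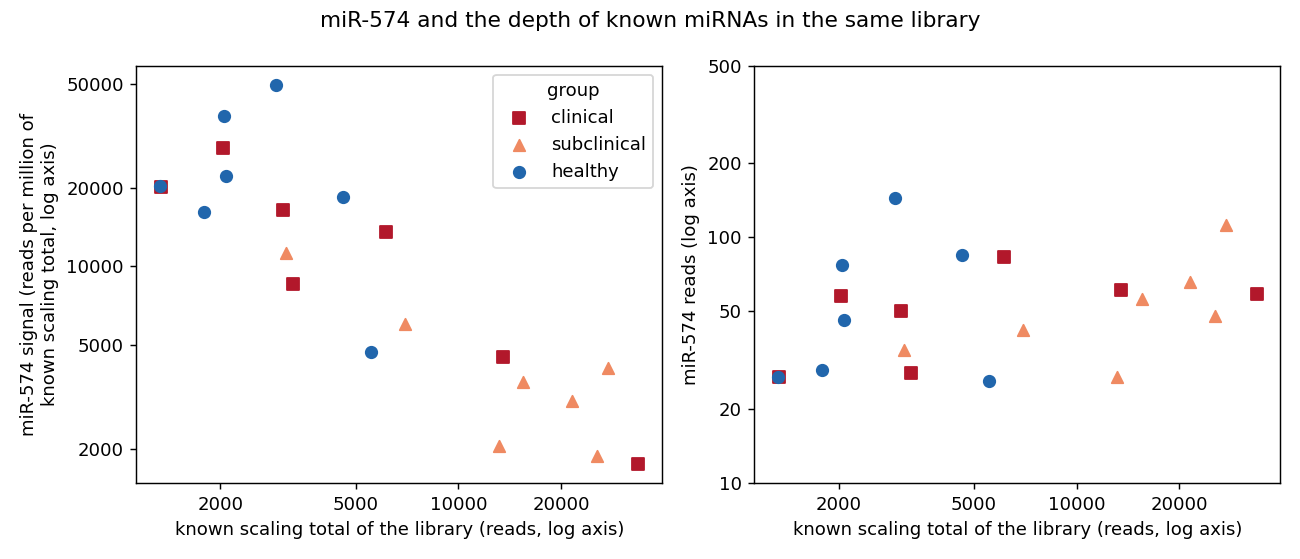
miR-574 signal (left) and miR-574 reads (right) of each cow against the known scaling total of its library, all axes log, for clinical, subclinical and healthy cows. Signal runs from 49624 at a known scaling total of 2922 reads to 1747 at one of 33776, while miR-574 reads stay between 26 and 145.

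Within the groups no relation between signal and depth passed the correction. Pearson's r between signal and known scaling total was -0.73 in clinical cows (exact permutation p = 0.00675, adjusted p = 0.0607 over 9 relations) and Spearman's rho was -0.93 (exact permutation p = 0.00675, adjusted p = 0.0607); without clinical 1 and clinical 7 r was -0.54. In subclinical cows r was -0.73 (exact permutation p = 0.0591, adjusted p = 0.177) and rho -0.54 (exact permutation p = 0.236, adjusted p = 0.354), with r at -0.75 without subclinical 2 and 4. In healthy cows r was -0.39 (exact permutation p = 0.388, adjusted p = 0.570) and rho -0.21 (exact permutation p = 0.662, adjusted p = 0.783), and without healthy 5 and healthy 7 r was 0.84. Signal holds the total as its denominator, so a negative relation is built in wherever reads do not follow depth.

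The relation of miR-574 reads with the known total did not pass the correction in any group. In subclinical cows r was 0.71 (exact permutation p = 0.0444, adjusted p = 0.177) and rho 0.79 (exact permutation p = 0.0480, adjusted p = 0.216), and r was 0.49 without subclinical 2 and 4. In clinical cows r was 0.31 (exact permutation p = 0.444, adjusted p = 0.570) and rho 0.71 (exact permutation p = 0.0881, adjusted p = 0.264), and r was 0.76 without clinical 1 and 7. In healthy cows r was 0.09 (exact permutation p = 0.771, adjusted p = 0.771) and rho 0.18 (exact permutation p = 0.713, adjusted p = 0.783), and r was 0.93 without healthy 5 and 7. No relation of miR-574 reads with the numbered reads passed either (r = -0.45 in clinical, 0.48 in subclinical and 0.27 in healthy cows; rho = -0.64 in clinical, 0.57 in subclinical and 0.14 in healthy cows; lowest exact permutation p = 0.139, adjusted p = 0.312). Leaving out the libraries farthest from the median took r to -0.59 in clinical, 0.89 in subclinical and -0.74 in healthy cows.

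The size of that dependence was set beside other known miRNAs with the group means removed, so that no difference between groups entered it. A slope of 1 in log2 reads against log2 of all other known reads means that a miRNA keeps its share as the library deepens. miR-574 had a slope of 0.25 (SE 0.14, 17 residual degrees of freedom), or 0.33 without clinical 7, the deepest library. It was 0.20 (SE 0.14) in clinical, 0.35 (SE 0.20) in subclinical and 0.27 (SE 0.56) in healthy cows. The median slope of the 44 miRNAs was 1.07, with miR-574 at rank 4 from the bottom. Under a slope of 0.5, a limit set after the values were seen, stood 7 of 44: miR-11980 (0.03), miR-11987 (0.07), miR-1246 (0.16), miR-574, miR-330 (0.36), miR-1260b (0.41) and miR-2478 (0.46). The next was miR-423-5p at 0.88. The points share their libraries and the slopes are a description.

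**Figure D3:**
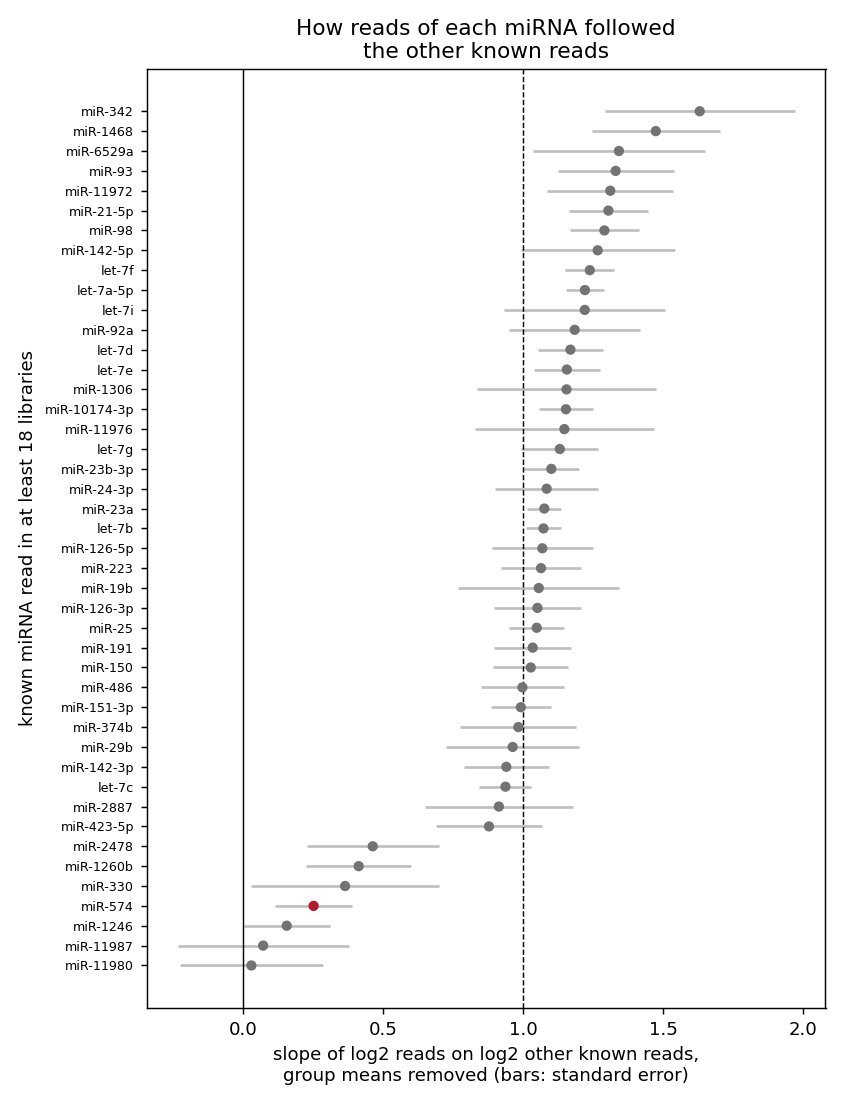
Slope of log2 reads on log2 of the other known reads, group means removed, for the 44 known miRNAs read in at least 18 of 21 libraries (points, with standard errors as bars); the dashed line marks a slope of 1. miR-574 (red) lies at 0.25 against a median of 1.07.

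Clinical against healthy cows asked whether miR-574 also differs in cows with visible disease; the clinical cows did not choose it, although the healthy cows took part in the choice. The mean signal of clinical cows, 13348 ± 9319, lay under the healthy mean of 24121 ± 14836 (SD, n = 7), and 6 of 7 clinical cows lay below that mean. Most healthy cows lay below it too, with a healthy median of 20270, because healthy 1 (49624) and healthy 2 (37488) raised it. The log2 change on the log2(signal + 1) scale was -1.01 (limma, SE 0.56, adjusted p = 0.820), which did not pass the threshold of 0.05. limma called 0 of 598 miRNAs in this comparison (0% called; 37 at an unadjusted p under 0.05), while edgeR on the recovered reads called 1 (0.167%) and DESeq2 8 (1.34%). miR-574 was not among them, at a log2 change of -0.82 in edgeR (adjusted p = 0.667) and -0.79 in DESeq2 (adjusted p = 0.647). Without clinical 7 the limma change was -0.60 (adjusted p = 0.847). With log2 of the known scaling total as a covariate, added after the data were seen, it was -0.31 (SE 0.38, limma adjusted p = 0.813).

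On other scales the same comparison did not pass either. Per 1000000 known and numbered reads together, clinical cows had 1023 ± 405 reads of miR-574 against 2028 ± 1377 for the healthy ones (SD, n = 7), and 7 of 7 clinical cows lay below the healthy mean (two-sided exact permutation p = 0.0519, adjusted p = 0.156 over 3 measures). Most healthy cows lay below the healthy mean too, with a healthy median of 1519. Without healthy 1 the healthy mean was 1558 (exact permutation p = 0.104). Against 12 circulating miRNAs often used to scale serum data, led by let-7a-5p (187648 ± 48227 in clinical, 127520 ± 42747 in subclinical and 181765 ± 10032 in healthy cows) and miR-423-5p (10276 ± 3088 in clinical, 28771 ± 24213 in subclinical and 17938 ± 11407 in healthy cows), clinical cows had 6.15 ± 4.47 reads of miR-574 per 100 reads of the list against 10.4 ± 6.97 for the healthy ones (exact permutation p = 0.207, adjusted p = 0.311). Not all of the list was well read: miR-30e-5p was read in 2 libraries and miR-26a in 9. Its reads alone gave an exact permutation p of 0.653 (adjusted p = 0.653).

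The groups ranked differently by scale. As a share of the known total, the mean of subclinical cows was the lowest. Per 1000000 reads of both row blocks the means were 1023 ± 405 in clinical, 1251 ± 401 in subclinical and 2028 ± 1377 in healthy cows, and the subclinical value lay above the clinical one. Per 1000000 numbered reads alone they were 1283 ± 560 in clinical, 2026 ± 918 in subclinical and 2303 ± 1535 in healthy cows; the subclinical to healthy ratio was 0.880, and 1.13 without healthy 1. Against the list of 12 circulating miRNAs the order was that of the deposited signal, with 6.15 ± 4.47 reads per 100 in clinical, 2.47 ± 2.31 in subclinical and 10.4 ± 6.97 in healthy cows. The list is itself a part of the known total. Its mean summed signal was 238265 in clinical, 208315 in subclinical and 241749 in healthy cows. The like order was therefore nearly built in and is no separate support.

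The log2 change of subclinical against healthy cows, a description here, was -2.37 on the deposited signal, -2.10 with median-ratio scaling and -2.10 in edgeR with a size factor per row block. It was -0.52 on reads per 1000000 of all reads and -0.31 in edgeR with 1 library size for both blocks. With the known total as a covariate it was -0.63, where few libraries of the groups overlap in depth. The median log2 change of the known miRNAs depended on the method. It was 2.23 on the deposited signal with a pseudocount of 1, 0.52 with a pseudocount of 100, 0.50 in edgeR and 0.24 in DESeq2. miR-574 lay below it in each (-2.37, -2.34, -2.10 and -2.06). That place follows from the choice of miR-574 for its lower subclinical signal. For clinical against subclinical cows the change was 1.36 on the deposited signal and -0.33 on reads per 1000000 of all reads. That comparison shares its subclinical cows with the one that chose miR-574.

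**Figure D4:**
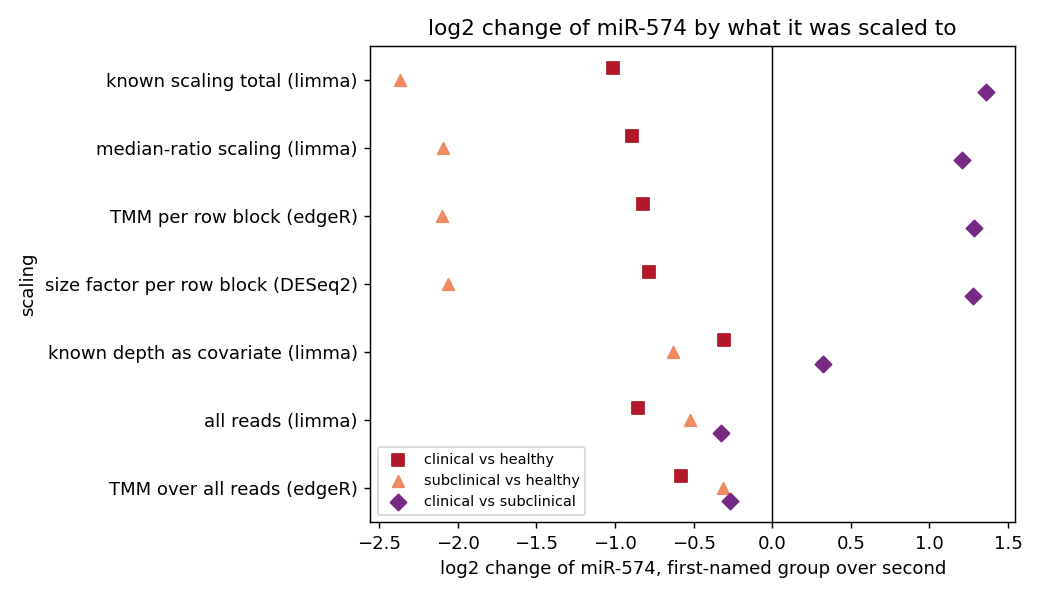
log2 change of miR-574 (x axis) for clinical against healthy, subclinical against healthy and clinical against subclinical cows, by what its reads were scaled to (y axis); no error bars are drawn because the contrasts with subclinical cows are a description. The subclinical change lies at -2.37 on the deposited signal and at -0.52 on all reads, and the clinical against subclinical change crosses 0.

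Few known miRNAs resembled miR-574 from cow to cow by the measure used. Likeness was the root mean square difference between 2 profiles of log2(signal + 1) over the 21 cows, each with its mean removed, where a smaller value is more alike; miR-574 itself lay 1.44 from a flat profile. Of 43 other miRNAs read in at least 18 libraries, 4 came closer than that. They were let-7c (1.07), miR-2478 (1.19), miR-1260b (1.22) and let-7b (1.41), followed by let-7a-5p (1.44) and miR-126-5p (1.47). miR-2478 had 2039 ± 1798 in clinical, 848 ± 389 in subclinical and 9914 ± 12028 in healthy cows, and miR-1260b had 3240 ± 2109 in clinical, 1764 ± 1392 in subclinical and 5368 ± 3293 in healthy cows. Their lowest mean in subclinical and highest in healthy cows follow from the choice of profiles like that of miR-574. On reads per 1000000 of all reads the distances of these 6 were nearly the same (1.07 for let-7c). That was fixed in advance, because 2 miRNAs of 1 library share its denominator, and it adds nothing to the likeness. On that scale miR-574 lay only 0.71 from a flat profile, and 0 of 43 came closer. These profiles share library and depth. On the signal scale a library with no read of a miRNA adds a large difference. miR-11980, read in 19 libraries, lay at 3.05, although its mean was 1182 in clinical, 318 in subclinical and 2665 in healthy cows.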

How the data were processed

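Per the labels, the miRNeasy Mini kit was used on serum EVs, and TruSeq small RNA libraries were made from 3 µg of total RNA. The submitters' processing notes name Bowtie, edgeR and the ARS-UCD1.2 build, with no role or version; trimming and counting are not stated in the sources at hand. The authors deposited a signal in reads per 1000000, with a scale of its own for the 298 known rows and another for the 549 numbered rows. The known rows of a sample summed to 2.06 to 5.39% above 1000000, and the numbered rows to 8.71 to 18.4% above it. The values were therefore handled as a signal, although the test had been planned for TPM. Known and numbered reads, summed over rows, thus exceed their scaling totals, the numbered reads by more. The sources at hand give no reason. In each block every value was a whole number of steps (tolerance 0.05 reads; 10115 of 10115 values above 0, 100%), which gave back the reads. Columns were tied to cows by the labels; those of the replicate 7 cows are numbered 10 (clinical), 8 (subclinical) and 9 (healthy). Nothing says whether cows share a herd or batch, and the p-values measure the spread between these samples. No 2 libraries agreed within sampling noise over known reads (smallest chi-square per degree of freedom 2.63, p = 2.1e-06).

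limma with a trend on log2(signal + 1) was the main test, two-sided, in 1 fit of 21 samples with 18 residual degrees of freedom. It was adjusted by Benjamini-Hochberg over the 598 miRNAs whose signal reached 1 in 7 or more samples. edgeR's quasi-likelihood test and DESeq2 on recovered reads were alternatives, with size factors per row block. Single measures were compared by exact permutation over cows. Slopes used log2(reads + 0.5). Named miRNAs were miR-574, its neighbours by mean, the most abundant, the 6 most alike, and members of a reference and 6 cell type lists; miRNAs named outside this rule were chosen after their values were seen. miR-574 and the lists were chosen with earlier results of these data known. The software was Python 3.11.15 with scipy 1.17.1, numpy 2.4.6, pandas 2.3.3 and matplotlib 3.10.9, and R 4.3.3 with DESeq2 1.42.0, edgeR 4.0.16 and limma 3.58.1.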

Additional observations from a re-analysis of the deposited data

Results flagged for a closer look

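Of 18 groups of 7 values examined (4 measures of miR-574 and 2 of depth in each group), 4 held a cow whose gap to the nearest other exceeded Dixon's 95% critical value for the range; chance flags about 1 in 20. Healthy 1 had 4844 miR-574 reads per 1000000 known and numbered reads, with a gap of 0.583 of the healthy range, and the highest miR-574 read count of all 21 cows, 145. Subclinical 2 had 7.32 miR-574 reads per 100 reads of the list of 12 circulating miRNAs, with a gap of 0.609, and its known total was the smallest of the subclinical group. Clinical 7 had a known scaling total of 33776 reads, with a gap of 0.624, and the lowest miR-574 signal of all cows, 1747. Healthy 7 had 13033 numbered reads, with a gap of 0.654, and the lowest miR-574 signal of the healthy cows, 4685.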

How the results depend on the processing

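The clinical against healthy change of miR-574 was below 0 in 37 of 37 alternatives (-1.36 to -0.31) and passed in none (limma, edgeR or DESeq2 adjusted p from 0.572 to 0.918). Several of these could not move it from -1.01: the settings of filter, trend, known rows and replicate block, and leaving out a subclinical library. Without 1 library each it ran from -1.36 to -0.60. The count of calls there was 0 in limma under each alternative and without any 1 library, 1 in edgeR and 8 in DESeq2 with size factors per row block, and 0 in edgeR with 1 library size. The subclinical against healthy change was -0.52 on 1 scale for both row blocks, -0.31 in edgeR with 1 library size and -0.63 with known depth as a covariate, and ran from -2.72 to -2.15 without 1 library each. The clinical against subclinical change was -0.33 on 1 scale and -0.27 in edgeR with 1 library size, and ran from 1.10 to 1.77 without 1 library each; with known depth as a covariate it was 0.32. In the other alternatives both moved by less than the spread between cows (pooled SD 1.14 on the log2 scale). The difference on 1 scale follows from its denominator, which counts the numbered reads. Replicate numbers are shared between groups. Over the rows tested, same-numbered cows deviated together in 3 of 21 pairs (r over 0.1), and 4 of 21 cows correlated best with their own number. The rate among differently numbered cows was not set beside these counts, so they do not decide whether cows were paired. For miR-574 itself, replicate 7 had the lowest signal of each group (clinical 1747, subclinical 1879, healthy 4685). Replicate 2 had the highest in clinical (28501) and subclinical cows (11236), and 37488 in healthy cows, below healthy 1. With the replicate block limma gave -1.01 for clinical against healthy (SE 0.36, unadjusted p = 0.0134, adjusted p = 0.572) and 0 calls. Without the block the SE was 0.56 (limma unadjusted p = 0.0847). The replicate 7 cows carry the column numbers 10 (clinical), 8 (subclinical) and 9 (healthy), so their columns share no number. Clinical 7 and healthy 7 also had the largest known scaling totals of their groups (33776 and 5550 reads), and subclinical 7 had 25544. Subclinical 2 had the smallest of its group (3115), and clinical 2 had 2035 against a clinical median of 3259. Depth and replicate number were not separated, and whether the number stands for something the cows share was not tested. At a known scaling total of 1332 reads, 1 read is worth 750.8 units of signal, and counts of 26 to 145 reads limit each value of miR-574.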

Other observations

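The other known miRNAs whose reads followed the known total least did not share one pattern over the groups. miR-1246, with a slope of 0.16 (SE 0.15), had 1380 reads in clinical, 14131 in subclinical and 950 in healthy cows, a subclinical to healthy ratio of 14.9, the highest of the 44. miR-1260b had 117 reads in clinical, 137 in subclinical and 98 in healthy cows, and miR-2478 had 70 in clinical, 83 in subclinical and 164 in healthy cows. miR-330 had 37 reads in clinical, 70 in subclinical and 46 in healthy cows. miR-11987 was highest in clinical cows (89 reads, against 55 in subclinical and 42 in healthy cows), and miR-11980 lowest in subclinical cows (33 reads in clinical, 17 in subclinical and 40 in healthy cows). let-7c, the miRNA most like miR-574 in signal, had a slope of 0.94 (SE 0.09) with 800 reads in clinical, 1162 in subclinical and 396 in healthy cows, against a slope of 0.25 (SE 0.14) for miR-574.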
